A study of Mus musculus with 6 samples.

Results

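The genes described here are those of the insulin-like growth factor (IGF) system that the array names as Igf1, Igf2, Igf1r, Igf2r, Igfbp2, Igfbp3, Igfbp4, Igfbp5, Igfbp6 and Igfbp7. Members were found by an exact match of the array's gene name, which gave 10 genes with 17 probes at 35 spots per array, of 19490 genes and 41085 probes in all. The tissue was the autopod, the hand or foot plate, of C57BL/6 mouse embryos at stage E14.5. Each of the 6 arrays was hybridised in 1 colour with amplified cDNA from laser-captured cells, and each held 1 tissue of 1 genotype. The controls, given as wild type, were 3 arrays of interzone (the cell band between neighbouring cartilage elements where a joint forms), growth plate chondrocytes and interdigital tissue. The mutants, with the genotype label Tgfbr2Prx1KO, were 3 arrays of the same tissues; in the title of the interdigital one the name is written Tbr2Prx1KO.

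The mutant name stands by convention for loss of Tgfbr2, the type II receptor of TGF-beta, through a recombinase driven from the Prx1 limb enhancer, which acts in limb mesenchyme and its cartilage but not in epidermis, endothelium or blood. The sources name 2 embryos per genotype, all littermates, and do not say which embryos stand behind an array. Each comparison within a tissue sets 1 array against 1 array, so its differences have no replicate check, and folds below are values of these arrays. For 5 samples the description named irradiated human blood while the title, organism and tissue named mouse limb, and the groups follow the titles.

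IGF1 and IGF2 are secreted growth factors that signal through the receptor kinase encoded by Igf1r, while the receptor encoded by Igf2r takes up IGF2 for breakdown. IGF-binding proteins hold the ligands outside the cell, and proteases that cleave them release the ligand. In the embryonic limb the system is known for its part in cartilage growth and in muscle and bone formation.

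Levels are log2 processed signals relative to the 75th percentile of the same array, so 0 is that percentile, and a level can be compared between arrays for 1 probe but not between probes. A gene is given by its probe with the highest mean level, called the brightest probe. The scanner software marked that probe as well above background on each of the 6 arrays for all 10 genes, and no spot was saturated. The median processed signal was 103 on the growth plate control array and between 340 and 502 on the other arrays, and the share of spots well above background ran from 72.3% on that array to 88.3%. Growth plate comparisons that use this control rest on the dimmest array. The targeted gene, Tgfbr2, stood at 2.42 in control and 2.24 in mutant interzone, -2.40 and 1.20 in growth plate, and 2.50 and 1.91 in interdigital tissue, so it was lower in 2 of the 3 mutant arrays by less than 2-fold and higher in the growth plate. The array labelled growth plate mutant thus held more Tgfbr2 signal than its control, and below a mutant is the array labelled so. The sources used here do not say whether the probe lies in the deleted part, and outside it the probe would not check the labels.

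Marker genes were read for the tissue labels. Gdf5, a joint marker, stood at 4.32 on the interzone control array against 2.19 in growth plate and 1.21 in interdigital tissue, and Col2a1, a cartilage collagen, was highest in the growth plate control at 7.98. Among mutant arrays Gdf5 was 2.09 in interzone, 0.22 in growth plate and 2.38 in interdigital tissue. Col2a1 lay between 5.38 and 5.76 on these arrays. Gdf5 thus set interzone apart among controls but not among mutants, and Col2a1 differed little among mutants. Aldh1a2, which makes retinoic acid between the digits, was highest in the interzone mutant at -0.85 and stood at -2.11 in the interdigital control. As lists, the markers set the controls apart less clearly. The 12 measured joint markers summed to 61.1, 34.8 and 19.4 on the interzone, growth plate and interdigital control arrays. Their median levels there were 0.975, 1.16 and 0.23. The 12 interdigital markers summed to 19.3, 16.6 and 17.9 on the same arrays, highest in interzone. A summed signal over 12 epidermal markers was 24.1, 107 and 10.6 on the interzone, growth plate and interdigital control arrays and 218, 226 and 186 on the mutant ones, higher in each tissue, and its part in the results below was not tested.

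**Figure D1:**
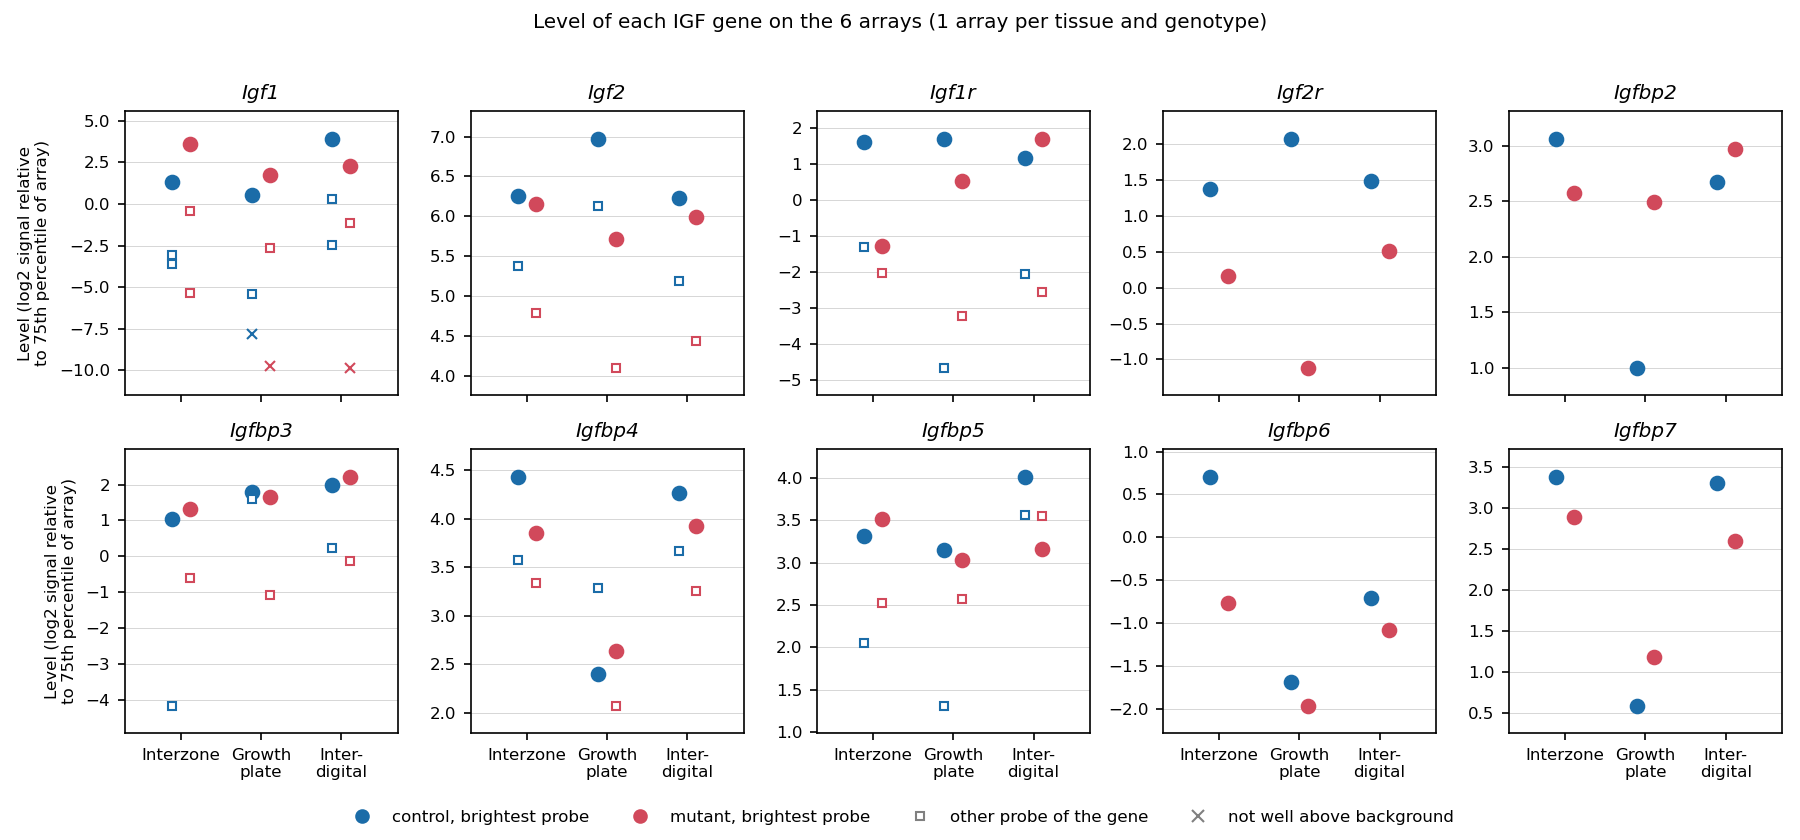
Level of each IGF gene (log2 signal relative to the array's 75th percentile) on the 6 arrays, by tissue, with controls in blue and mutants in red. Filled points are the brightest probe, open squares other probes and crosses probes not well above background. Igf2r was lower in the mutant in all 3 tissues, and Igfbp7 was lowest in growth plate in both genotypes.

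At the brightest probe, the members that stood apart most between genotypes across the 3 tissues were the ligand gene Igf1 and both receptor genes. Igf1 was higher in the mutant in interzone and growth plate and lower in interdigital tissue, Igf2r was lower in all 3 tissues, and Igf1r was 7.43-fold lower in mutant interzone. Igf2 differed most in growth plate, where it was 2.38-fold lower. Of the 6 binding protein genes, 5 differed by less than 2-fold in interzone, 5 in growth plate and 6 in interdigital tissue. All these values are of the brightest probe. The second Igfbp3 probe differed by 3.57 in interzone and -2.69 in growth plate. Other probes of Igf1 and Igf1r gave other sizes or signs, as described below.

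Counted at 2-fold, 1 of 10 members was higher and 3 were lower in mutant interzone, 2 were higher and 3 lower in mutant growth plate, and 0 were higher and 1 lower in mutant interdigital tissue. Of all genes measured on both arrays, 17.8% were higher and 22.8% lower in interzone (40.5% different), 22.1% and 32.6% in growth plate (54.7%), and 10.1% and 16.0% in interdigital tissue (26.0%). The members' shares (4, 5 and 1 of 10) therefore do not stand above those of all genes. The median log2 difference of the members was -0.49 in interzone, -0.13 in growth plate and -0.36 in interdigital tissue, beside -0.11, -0.45 and -0.18 over all genes. The growth plate split depended on scaling: with the deposited values, which put the array medians level, 0 members were higher and 6 lower there, with a median of -1.24 beside -1.56 over all genes.

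**Figure D2:**
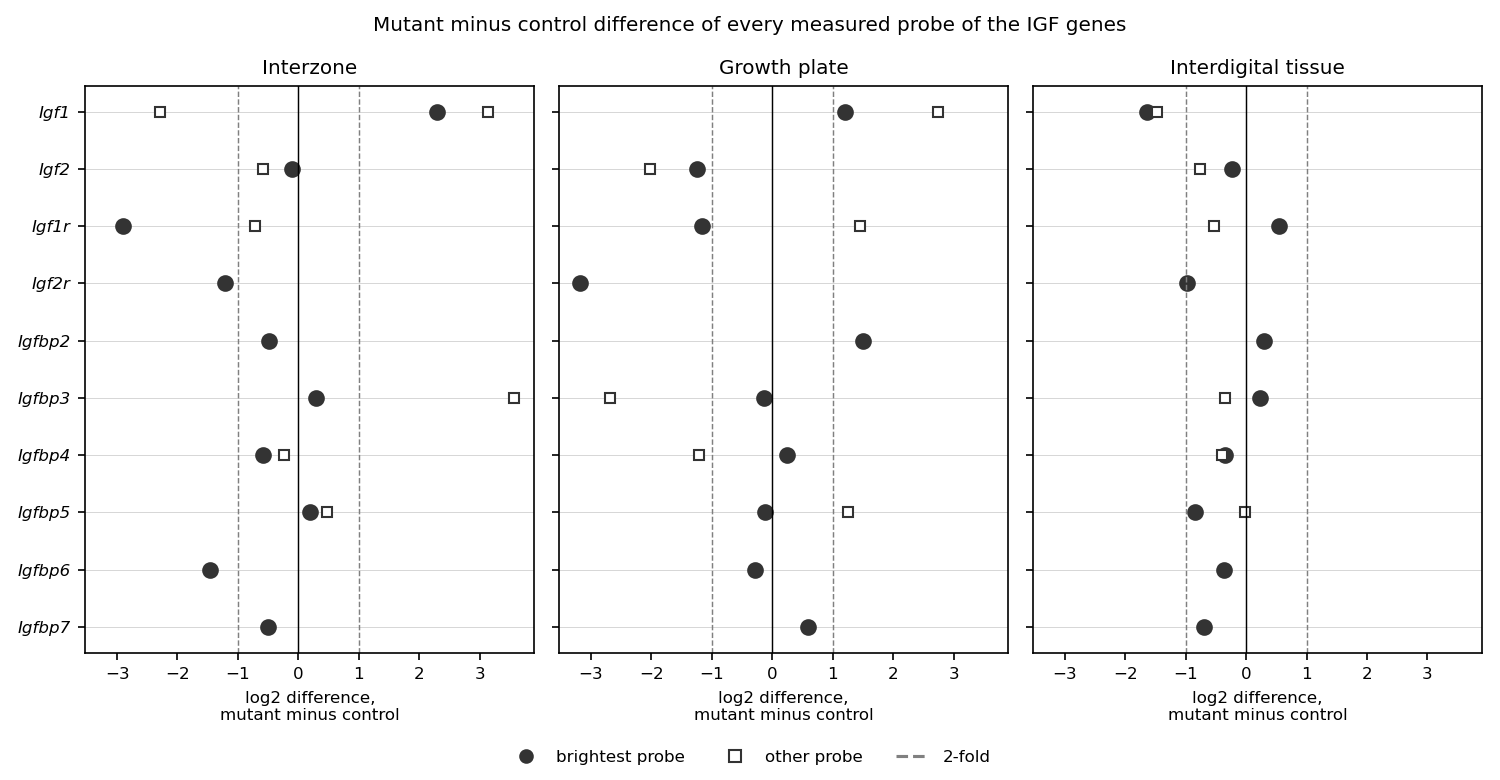
Mutant minus control log2 difference of every measured probe of the IGF genes in each tissue, with 1 control and 1 mutant array per panel. Filled points are the brightest probe, open squares other probes, and dashed lines 2-fold. The points of 1 gene lay on opposite sides of 0 in 6 of 18 pairs of gene and tissue.

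**Figure D3:**
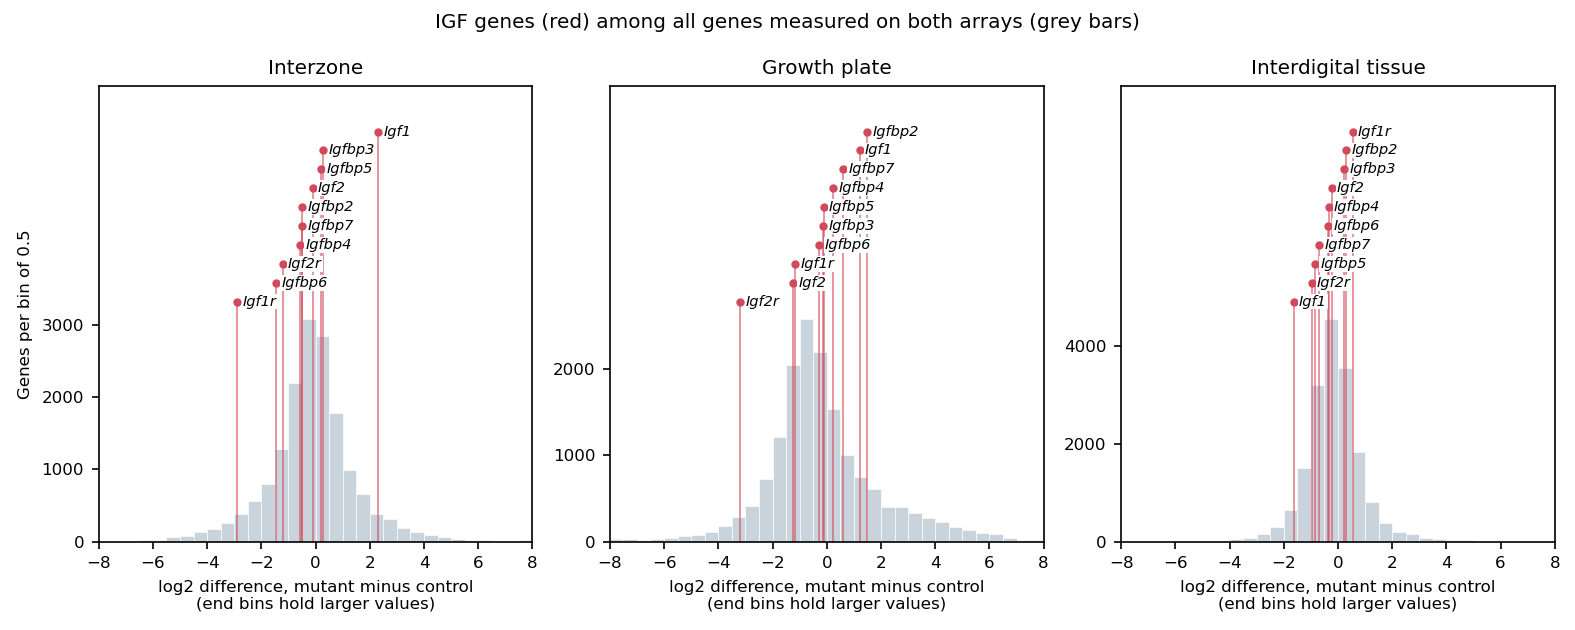
Distribution of the mutant minus control log2 difference over all genes measured on both arrays of a tissue (grey bars, genes per bin of 0.5), with the 10 IGF genes marked in red. The heights of the red points carry no value. In growth plate Igf2r lay at -3.19, below the median of all genes at -0.45.

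Igf1 encodes the ligand that circulates and also acts locally in cartilage and muscle. It stood at 1.30 in control and 3.60 in mutant interzone, 0.54 and 1.75 in growth plate, and 3.93 and 2.29 in interdigital tissue. The interdigital control was the highest of the 6 arrays, the interzone mutant followed within 2-fold, and the growth plate control was the lowest. The mutant was 4.93-fold higher in interzone, 2.31-fold higher in growth plate and 3.11-fold lower in interdigital tissue. With the mean over its probes the difference was 1.05 in interzone and -3.49 in interdigital tissue, and over the 6 settings tried it ran from 1.05 to 2.53 and from -3.49 to -1.46. In growth plate the difference of 1.21 became 0.09 with the deposited values, while it was 1.66 relative to the median of all genes and between 0.89 and 2.01 over the 6 settings tried. The mean over probes, which gave the -3.49 and the 0.89, takes in the AK050118 probe described below. That probe was not well above background in mutant interdigital tissue or on either growth plate array. In interdigital tissue the other 2 probes gave -1.64 and -1.48.

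The RefSeq promoter window of Igf1 is shown because this gene had the widest range over the arrays, and those of both receptors because both were lower in mutant interzone. Each window holds the 250 bases before a RefSeq transcript start on GRCm38.p6, 5′ to 3′ on the gene's strand, and capitals mark CAGAC or its reverse complement GTCTG, the core motif bound by Smad proteins, the transducers of TGF-beta. The Igf1 window, chr10:87860861-87861110 on the plus strand, lies inside the gene's span from 87858265 to 87937047, before a later start. The Igf1r window is chr7:67952007-67952256 on the plus strand, and the Igf2r window is chr17:12769707-12769956 on the minus strand.
Igf1: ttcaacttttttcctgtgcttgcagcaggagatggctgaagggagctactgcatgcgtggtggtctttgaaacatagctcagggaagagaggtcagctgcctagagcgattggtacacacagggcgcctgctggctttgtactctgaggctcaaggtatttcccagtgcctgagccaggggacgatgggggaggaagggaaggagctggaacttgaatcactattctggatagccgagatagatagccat
Igf1r: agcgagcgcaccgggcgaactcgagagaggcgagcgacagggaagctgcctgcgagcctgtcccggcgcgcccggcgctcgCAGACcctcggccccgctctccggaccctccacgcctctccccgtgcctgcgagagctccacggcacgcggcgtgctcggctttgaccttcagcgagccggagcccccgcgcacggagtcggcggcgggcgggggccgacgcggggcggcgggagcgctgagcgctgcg
Igf2r: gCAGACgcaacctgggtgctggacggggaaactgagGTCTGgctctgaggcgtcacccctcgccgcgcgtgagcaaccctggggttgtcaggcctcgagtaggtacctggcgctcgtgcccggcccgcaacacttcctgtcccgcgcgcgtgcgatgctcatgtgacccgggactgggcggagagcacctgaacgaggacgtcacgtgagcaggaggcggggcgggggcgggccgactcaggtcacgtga
The Igf1 window held 0 matches, the Igf1r window 1 and the Igf2r window 2. All 10 members were matched to RefSeq with 14 promoter windows, of which 7 windows of 5 genes (Igf1r, Igf2, Igf2r, Igfbp2 and Igfbp6) held the motif on either strand, beside 42.2% of 32851 mouse windows of the same length. The motif ACAAT or its reverse complement ATTGT, a core bound by SOX proteins, was in 2 windows of 1 member (Igf2) and in 27.7% of all windows. Matches of both motifs can overlap at their ends, each motif was counted on its own, and a match is a string of letters in the window only.

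A second Igf1 probe, made for NM_010512, was printed at 10 spots on each array and read -3.59 ± 0.12 (SD over 10 spots) in control and -0.44 ± 0.09 in mutant interzone. It read -5.38 ± 0.16 and -2.63 ± 0.07 in growth plate, and 0.31 ± 0.09 and -1.17 ± 0.09 in interdigital tissue. The spots of the paired arrays did not overlap in any tissue, and the order was that of the brightest probe, with differences of 3.15, 2.75 and -1.48. Spots of 1 array share their RNA, so this spread is that of printing and scanning and not of embryos.

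The remaining Igf1 probe, made for the cDNA AK050118, went the other way in interzone. It read -3.06 in control and -5.35 in mutant interzone, a difference of -2.28, neither growth plate array had it well above background, and it was at least 39.7-fold lower on the mutant array in interdigital tissue. Per the scanner files, this probe is placed on chromosome 10 from 87420848 to 87420907, the brightest probe from 87471884 to 87471943 and the repeated one from 87488982 to 87489041. The sources used here do not name the build of these positions, so they are not set against the promoter window.

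**Figure D4:**
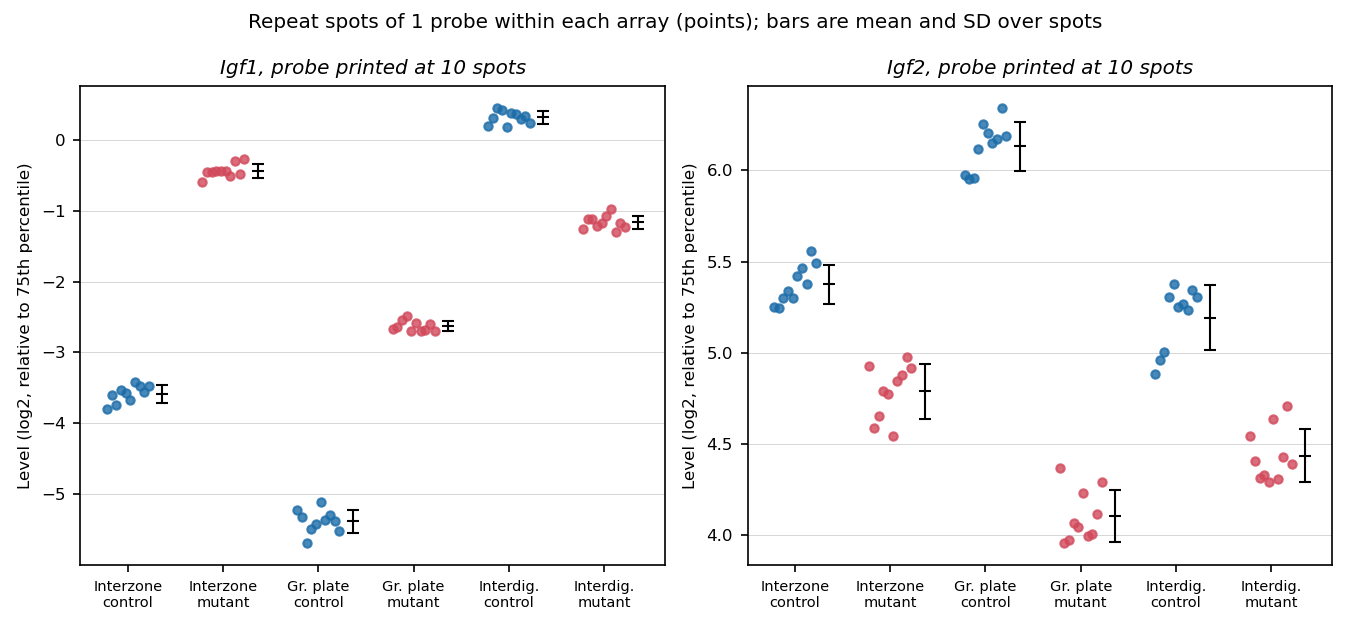
Level of the repeated Igf1 probe (left) and the repeated Igf2 probe (right) at each of their 10 spots on each array, with controls in blue and mutants in red and bars for the mean and SD over spots. The SD ran from 0.07 to 0.16 for Igf1 and from 0.11 to 0.18 for Igf2, and the Igf1 spots of paired arrays did not overlap.

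Igf1 is made by macrophages and muscle among other cells, and the marker lists of these cells are given beside it. The summed signal of 15 macrophage markers was 7.10 in control and 21.4 in mutant interzone, 17.5 and 7.87 in growth plate, and 24.5 and 16.1 in interdigital tissue. At 2-fold, mutant interzone had 10 of 14 measured markers higher and 2 lower, with 4 of 13 higher and 4 lower in growth plate, and 0 of 15 higher and 5 lower in interdigital tissue. The median log2 difference of these markers was 2.25 in interzone, 0.28 in growth plate and -0.83 in interdigital tissue, so in growth plate the sum and the median differed in sign. Mrc1 was not well above background in control interzone, nor were Ptprc and Mrc1 in mutant growth plate. The 19 muscle markers summed to 21.4 and 66.6 in interzone, 81.8 and 20.9 in growth plate, and 35.0 and 21.6 in interdigital tissue, with Myf5 not well above background on any array. Their part in the Igf1 result was not tested, and in such samples fewer cells of a type and less RNA per cell cannot be told apart.

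Igf2, the main fetal IGF and an imprinted gene, stood at 6.26 in control and 6.15 in mutant interzone, 6.97 and 5.72 in growth plate, and 6.23 and 6.00 in interdigital tissue. The growth plate control was the highest array and the growth plate mutant the lowest, while each step between neighbours in the order was under 2-fold. The difference was -1.25 in growth plate, and it was -0.80 relative to the median of all genes. Under quantile normalisation the growth plate difference was -0.37, and there it lay 0.17 above the median of all genes.

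The other Igf2 probe, also printed at 10 spots, read 5.37 ± 0.11 (SD over 10 spots) in control and 4.79 ± 0.15 in mutant interzone. It read 6.13 ± 0.13 and 4.10 ± 0.14 in growth plate, and 5.19 ± 0.18 and 4.43 ± 0.15 in interdigital tissue. All 3 differences (-0.59, -2.03 and -0.76) had the sign of the brightest probe and were larger in size. In growth plate this probe was 4.08-fold lower in the mutant.

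Cartilage markers were lower beside Igf2 in mutant growth plate. The summed signal of 15 cartilage markers was 763 in control and 86.7 in mutant growth plate, where 14 of 15 were at least 2-fold lower, and it was 200 and 94.7 in interzone and 117 and 78.5 in interdigital tissue. Their part in the Igf2 and Igf2r values of growth plate was not tested.

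Igf1r, the signalling receptor, stood at 1.63 in control and -1.26 in mutant interzone, 1.72 and 0.55 in growth plate, and 1.17 and 1.71 in interdigital tissue. The interzone mutant was the lowest array by 1.81, and the other 5 arrays lay between 0.55 and 1.72. The mutant was 7.43-fold lower in interzone, and this difference kept its sign over the 6 settings, from -2.94 to -1.81. In growth plate it was 2.24-fold lower, and the sign turned to 0.14 when the probes of the gene were averaged.

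The other Igf1r probe, made for AK044980, stood at -1.30 in control and -2.03 in mutant interzone, -4.65 and -3.21 in growth plate, and -2.04 and -2.56 in interdigital tissue. It was lower by less than 2-fold in mutant interzone, where the sign was that of the brightest probe, and 2.72-fold higher in mutant growth plate, where the sign was opposite. In interdigital tissue the probes differed in sign too, at 0.54 and -0.53. Only the interzone direction was thus shared by both probes.

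Igf2r, the uptake receptor for IGF2 and for lysosomal enzymes carrying mannose 6-phosphate, had 1 probe on the array. It stood at 1.38 in control and 0.16 in mutant interzone, 2.07 and -1.11 in growth plate, and 1.48 and 0.50 in interdigital tissue. All 3 controls lay above all 3 mutants. The mutant was lower by 2.32-fold in interzone, by 9.10-fold in growth plate and by 1.97-fold in interdigital tissue. These 3 differences kept their sign over the 6 settings, and the smallest sizes were -0.98, -2.79 and -0.80.

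A limma fit of genotype with tissue as a factor over 18012 genes called 0 members and 0.00% of genes at an adjusted p under 0.05, and 1199 genes, 1 of them a member (Igf2r), had an unadjusted p under 0.05. For Igf2r the genotype difference over the 3 tissues was -1.79 (95% confidence interval -3.43 to -0.16), lower in 3 of 3 tissues, with an adjusted p of 0.69 by limma with Benjamini-Hochberg adjustment. Without the growth plate arrays it was -1.10 (-2.31 to 0.12), and with slide as a block it was -1.22 (-4.76 to 2.33), which is the value of the interzone pair, the one pair on a single slide. For Igf1r the fit gave -1.17 (-3.21 to 0.86) and for Igf1 0.62 (-1.60 to 2.85), so neither was separable from 0. The intervals of all 10 members but Igf2r included 0. All these intervals rest on how the genotype difference varied between tissues, since no group had a replicate array. They do not measure the spread between embryos.

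Of the binding protein genes, Igfbp6 stood out in interzone and Igfbp2 in growth plate. IGFBP6 binds IGF2 with preference. Igfbp6 stood at 0.71 in control and -0.76 in mutant interzone, -1.68 and -1.96 in growth plate, and -0.70 and -1.07 in interdigital tissue. The interzone control was the highest array and both growth plate arrays were the lowest. The mutant was 2.77-fold lower in interzone, with differences from -1.50 to -1.20 over the settings, and less than 1.5-fold lower in the other 2 tissues.

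Igfbp2, a binding protein of fetal tissues, stood at 3.07 in control and 2.57 in mutant interzone, 1.002 and 2.50 in growth plate, and 2.68 and 2.98 in interdigital tissue. The growth plate control was the lowest array by 1.50, and the other 5 arrays lay within 2-fold of each other. The mutant growth plate was therefore 2.82-fold higher, between 0.38 and 1.88 on the log2 scale over the settings, and 1.95 above the median of all genes.

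The remaining binding protein genes differed by less than 2-fold between genotypes at their brightest probe. Igfbp3, which encodes the main carrier in serum, stood at 1.03 and 1.32 in interzone, 1.78 and 1.65 in growth plate, and 1.98 and 2.22 in interdigital tissue, control first. Its second probe gave differences of 3.57, -2.69 and -0.35 in the 3 tissues, so the size for Igfbp3 depended on the probe. In interdigital tissue the sign did too, as the brightest probe had 0.23. With the mean over probes the Igfbp3 difference was 1.93 in interzone and -1.41 in growth plate, both past 2-fold. Igfbp5, which encodes a binding protein that attaches to the matrix, stood at 3.31 and 3.51, 3.14 and 3.02, and 4.01 and 3.16. At this brightest probe its whole range over the arrays was under 2-fold. Its second probe ran from 1.32 in control growth plate to 3.56 in control interdigital tissue, which is 4.73-fold. This second probe was 2.39-fold higher in mutant growth plate, where the brightest probe had a difference of -0.12. Of 6 genes with more than 1 probe, the measured probes had the same sign in 12 of 18 pairs of gene and tissue.

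Igfbp4, which encodes a binding protein cleaved by the protease PAPP-A, stood at 4.43 in control and 3.85 in mutant interzone, 2.40 and 2.63 in growth plate, and 4.27 and 3.92 in interdigital tissue. Its second probe read 3.29 in control and 2.08 in mutant growth plate, a difference of -1.21, where the brightest probe had 0.24. Igfbp7, which encodes a related matrix protein with low affinity for IGFs and is known from vessels, stood at 3.38 and 2.88, 0.59 and 1.18, and 3.30 and 2.60. At the brightest probe both genes were lowest on the 2 growth plate arrays, and the interzone and interdigital arrays lay within 2-fold of each other. At the second Igfbp4 probe the growth plate control, at 3.29, lay just above the interdigital mutant at 3.26.

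In tissue comparisons among controls, 0 of 10 members were higher in growth plate than in interzone and 4 were lower (Igfbp2, Igfbp4, Igfbp6 and Igfbp7), where 23.9% of all genes were higher and 24.9% lower (48.8% different). Against interdigital tissue, 0 were higher and 4 lower in growth plate (Igf1, Igfbp2, Igfbp4 and Igfbp7), where 24.8% of all genes were higher and 24.9% lower (49.7%). Between interzone and interdigital tissue 1 member was higher (Igfbp6) and 1 lower (Igf1), where 14.6% and 15.0% of all genes were (29.5%). The shares of members that differed were below those of all genes in each of these comparisons. These counts hold for the brightest probe. The second Igfbp3 probe was 54.2-fold higher in growth plate than in interzone, and 2.61-fold higher than in interdigital tissue. In interzone it was 20.8-fold below interdigital tissue. The other Igf1r probe was 10.2-fold and 6.12-fold lower in growth plate. Growth plate was 3.47-fold below interzone at the repeated Igf1 probe and 4.73-fold below interdigital tissue at the second Igfbp5 probe. The members' lower side depended on scaling: with the deposited values, which move the median of all genes in growth plate against interzone from 0.13 to 1.33, 5 members were higher and 2 lower. Against interdigital tissue they move that median from 0.15 to 1.61, and 4 members were higher and 2 lower.

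Among mutants, 1 member was higher in growth plate than in interzone (Igf1r) and 5 were lower (Igf1, Igf2r, Igfbp4, Igfbp6 and Igfbp7), where 18.2% of all genes were higher and 21.4% lower (39.5%). Against interdigital tissue, 0 were higher and 4 lower (Igf1r, Igf2r, Igfbp4 and Igfbp7), where 13.2% and 16.2% of all genes were (29.4%). Between interzone and interdigital tissue 1 was higher (Igf1) and 1 lower (Igf1r), where 18.2% and 18.0% of all genes were (36.2%). The members' shares (6, 4 and 2 of 10) lay above those of all genes in the first pair of comparisons and below in the last, and at 4-fold 0 members remained past the threshold in either growth plate comparison. These comparisons share arrays with each other. At the other Igf1r probe mutant growth plate was 2.26-fold below interzone, and interzone was 1.45-fold above interdigital tissue. Both signs were opposite to those of the brightest Igf1r probe.

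At the brightest probe, Igfbp4 and Igfbp7 were at least 2-fold lower in growth plate than in both other tissues in both genotypes. For Igfbp7 growth plate was 6.89-fold below interzone and 6.54-fold below interdigital tissue among controls, and 3.25-fold and 2.68-fold below them among mutants. For Igfbp4 the values were 4.10-fold and 3.66-fold among controls and 2.32-fold and 2.44-fold among mutants. The second Igfbp4 probe had the same sign in all 4 comparisons, but was only 1.23-fold and 1.30-fold lower among controls, beside 2.39-fold and 2.27-fold among mutants. All 4 differences of both genes kept their sign over the 6 settings, but Igfbp4 did not stay past 2-fold in all of them. With the deposited values its control differences were -0.84 against interzone and -0.42 against interdigital tissue, and with normexp its mutant difference against interzone was -0.99.

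**Figure D5:**
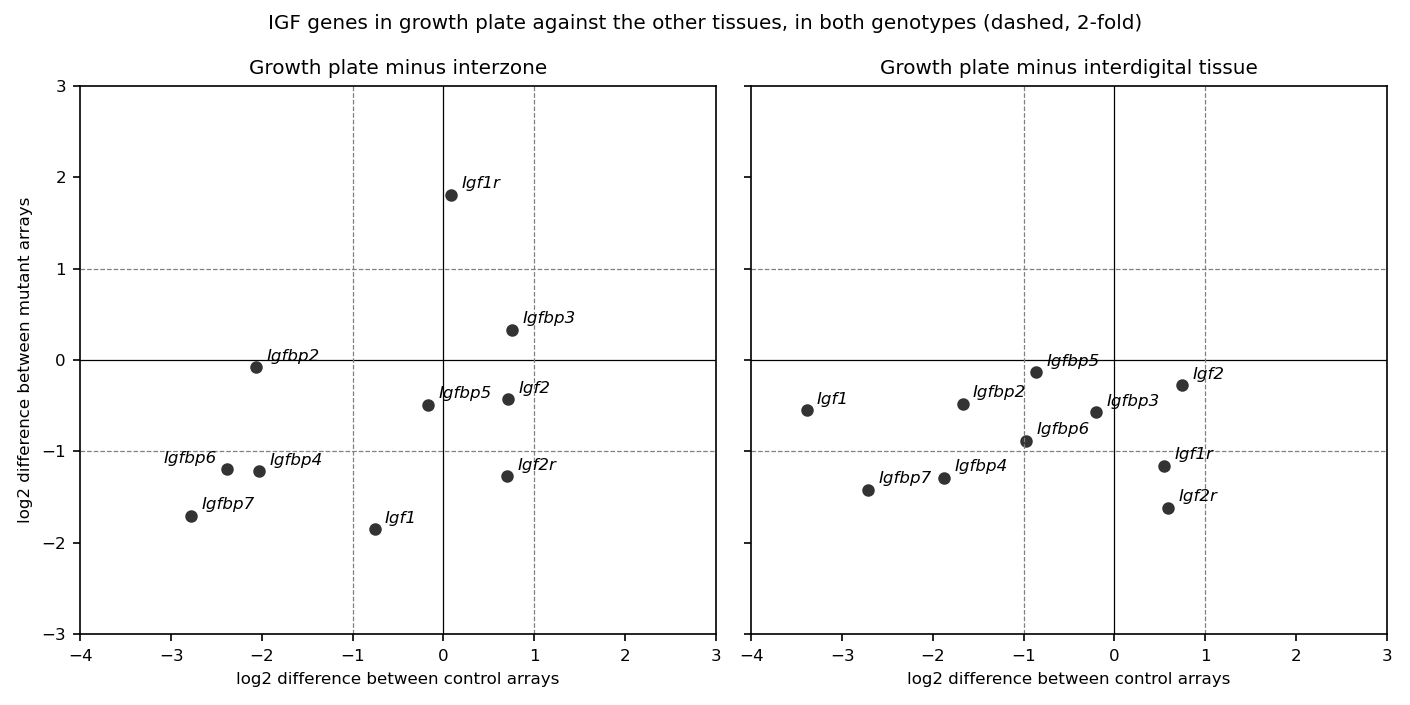
Log2 difference of each IGF gene between growth plate and interzone (left) and between growth plate and interdigital tissue (right), with control arrays on the x axis and mutant arrays on the y axis and dashed lines at 2-fold. Igfbp4 and Igfbp7 lie below -1 on both axes in both panels.

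The limma fit over both genotypes called 0 members and 0.00% of 18012 genes in each of the 3 tissue contrasts. At an unadjusted p under 0.05 it held 1181 genes for growth plate against interzone, 1010 for growth plate against interdigital tissue and 471 for interzone against interdigital tissue, with 2, 2 and 0 members. In both growth plate contrasts those members were Igfbp4 and Igfbp7. The intervals given next rest on the same spread as those of genotype, and do not measure the spread between embryos. Igfbp7 differed by -2.24 in growth plate against interzone (95% confidence interval -3.56 to -0.93, adjusted p 0.72 by limma) and by -2.06 against interdigital tissue (-3.38 to -0.75, adjusted p 0.82 by limma), in 2 of 2 genotypes each. Igfbp4 differed by -1.63 (-2.56 to -0.70, adjusted p 0.72 by limma) and -1.58 (-2.51 to -0.65, adjusted p 0.82 by limma). With the deposited values the interval of Igfbp7 reached 0.24 against interzone and 0.71 against interdigital tissue.

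Endothelial markers were read beside Igfbp7. Their summed signal over 15 genes was 20.5, 13.1 and 34.2 on the interzone, growth plate and interdigital control arrays and 20.4, 17.9 and 22.5 on the mutant ones. Growth plate held the lowest sum in both genotypes. By the median level of these markers the growth plate control was lowest at -2.47, while the mutant growth plate stood at 0.15, above the mutant interzone at -0.05. Kdr, Tek and Tie1 were not well above background on the growth plate control array. The part of these cells in the Igfbp7 levels was not tested.

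The order of arrays was compared between genes as a description over 6 arrays, which share embryos and scaling. Igfbp4 and Igfbp7 had a Pearson r of 0.991, and Igf2 and Igf2r one of 0.859. For the 4 members with the widest range, the genes most alike among 13773 were Fyn (r = 0.985) and Wscd1 (0.983) for Igf1, Ptgis (0.994) and D730050B12Rik (0.994) for Igf2r, Exosc4 (0.994) and Csrp1 (0.991) for Igf1r, and Meox2 (0.996) and Zfp979 (0.994) for Igfbp7. With 6 arrays and this many genes, high values arise readily, so the names are listed only.

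Of 56 other genes of the IGF pathway, 55 were on the array (Irs2 was not matched). At 2-fold, mutant interzone had 7 of 53 measured higher and 10 lower, growth plate 7 of 50 higher and 18 lower, and interdigital tissue 5 of 55 higher and 4 lower. The shares that differed lay below those of all genes in each tissue, 32.1% in interzone and 16.4% in interdigital tissue among them, and their medians of -0.09, -0.44 and -0.12 were close to the medians of all genes given above. The differences below are of 1 mutant against 1 control array, with the main scaling only. Those of growth plate depend on scaling, as the deposited values moved the median of all genes there from -0.45 to -1.56. Growth plate folds close to 2 may thus not stay past 2-fold under another scaling.

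Among 8 genes of proteases that cleave IGF-binding proteins and their inhibitors, 2 were higher and 2 lower in mutant interzone, 2 of 7 were higher and 3 lower in growth plate, and 0 were higher and 2 lower in interdigital tissue. Pappa, which encodes PAPP-A, was 7.99-fold higher in mutant growth plate (-4.22 in control, -1.22 in mutant) and 5.27-fold lower in mutant interdigital tissue (-2.99 and -5.38). Pappa2, which encodes a related protease, was 2.49-fold higher in interzone. It was lower in the other 2 mutant tissues, by 30.2-fold in growth plate (-1.77 in control, a dim -6.69 in mutant) and 2.52-fold between the digits. Stc1 and Stc2 encode stanniocalcins, which inhibit these proteases. Stc1 was 3.38-fold lower in mutant interzone and 5.10-fold lower in growth plate, where Stc2 was 3.94-fold lower. Htra1, a secreted serine protease gene, was 34.6-fold lower in mutant interzone (0.23 in control, a dim -4.89 in mutant). Adamts1 was 19.7-fold higher in growth plate (a dim -5.08 in control, -0.77 in mutant). It was 3.38-fold higher in interzone, where 1 of its 2 probes went the other way.

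Of the 3 further binding protein and carrier genes, Igfals, which encodes the acid-labile subunit of the serum complex, was 2.85-fold lower in mutant growth plate, at -3.02 in control and -4.54 in mutant. The other genes of this list were under 2-fold wherever measured.

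Among 12 related receptors, substrates and adaptors, 1 was higher and 1 lower in mutant interzone, 0 of 11 were higher and 4 lower in growth plate, and 2 were higher and 1 lower in interdigital tissue. Socs2, a suppressor of growth hormone signalling, was 11.3-fold higher in mutant interzone (-3.84 in control, -0.34 in mutant) and 2.10-fold higher in interdigital tissue. Grb10 is an imprinted gene whose product restrains the insulin and IGF receptors. By its brightest probe it was 2.88-fold lower in mutant growth plate, where only 2 of its 3 probes had this direction. In interzone it was 2.01-fold lower by that probe, and 2 of its 3 probes went the other way. Insr, the insulin receptor gene, was 3.26-fold lower in growth plate, where 1 of its 2 probes went the other way, and 2.54-fold higher in interdigital tissue. In growth plate Insrr was 2.28-fold and Shc1 2.09-fold lower, and in interdigital tissue Grb14 was 3.26-fold lower.

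Among 22 genes of the PI3K, AKT and mTOR branch below the receptor, 4 were higher and 6 lower in mutant interzone, 3 of 21 higher and 6 lower in growth plate, and 2 higher and 1 lower in interdigital tissue. The genes of the FOXO factors, which AKT keeps out of the nucleus, had the largest values. Foxo1 was 92.7-fold lower in mutant interzone (1.63 in control, -4.90 in mutant) and 11.0-fold lower in growth plate. Foxo3 was 20.6-fold lower in interzone (-1.57 in control, -5.93 in mutant) and 20.9-fold higher in growth plate (-6.06 and -1.67). Each Foxo3 fold rests on 1 measured probe with a dim reading on 1 array. Foxo4 was 6.11-fold lower in growth plate and 3.01-fold higher in interdigital tissue. The direction of Foxo3 and Foxo4 thus differed between tissues, and the difference was not tested. Rheb, the small GTPase gene that switches on mTOR, was 4.29-fold lower in interzone, and Tsc2, whose product inhibits it, was 4.49-fold lower in growth plate.

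In interzone Pdpk1 was 2.59-fold, Rptor 2.32-fold and Trib3 2.28-fold higher in the mutant, where 1 of 3 Pdpk1 probes and 1 of 4 Rptor probes went the other way, and in interdigital tissue Pdpk1 was 2.12-fold lower. Akt1 was 2.07-fold higher in mutant growth plate. These genes encode an AKT kinase, a subunit of mTOR complex 1, an AKT-binding pseudokinase and AKT itself.

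Of 10 genes that act on IGF transcripts or share their imprinted network, 0 of 9 were higher and 1 lower in mutant interzone, 2 of 9 higher and 4 lower in growth plate, and 1 higher and 0 lower in interdigital tissue. In growth plate Plagl1, an imprinted zinc finger gene, was 4.13-fold lower (6.88 in control, 4.84 in mutant). Cdkn1c, an imprinted inhibitor of the cell cycle, was 3.50-fold lower and H19, the non-coding neighbour of Igf2, was 2.81-fold lower. Igf2 was lower on the same pair of arrays. Igf2bp1 and Igf2bp3, which encode proteins that bind Igf2 mRNA, were 13.1-fold and 2.71-fold higher in mutant growth plate, by all their measured probes. Lin28b was 11.7-fold lower in mutant interzone (-2.33 in control, a dim -5.88 in mutant). Plag1, an activator of Igf2, was 3.54-fold higher in mutant interdigital tissue.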

How the data were processed

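Each array was read with Agilent Feature Extraction 9.5.1.1, per the file headers, and the deposited scanner files hold a background-subtracted intensity per spot. The deposited value table holds a linear ratio of that signal to the array's median, as found by setting it against the scanner values, and was used as an alternative. All 3 controls shared slide 1 with the interzone mutant, and slide 2 carried the growth plate and interdigital mutants, so genotype and slide cannot be told apart for those 2 pairs.

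Control spots and outliers were left out, spots of a probe were averaged, and each array was scaled to its 75th percentile. Probes were named from the array's gene name for the members and otherwise from a RefSeq table of GRCm38.p6 through accessions or symbols, and 2 probes tied to a member only by accession were left out. Genes well above background on both arrays of a pair were counted at 2-fold. A probe above background on 1 array has a bound, computed against the dim array's own value for it or that array's lowest well-detected probe, whichever is higher.

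Fits used limma 3.58.1 in R 4.3.3 (lmFit, eBayes with a trend, Benjamini-Hochberg over all genes above background on at least 3 arrays). The fit was also run on simulated arrays with independent noise. Those hold no shared embryos, slides or tissue differences, so that run does not bear on the p-values of these arrays. The fits have 2 residual degrees of freedom. The 3 captured regions of a genotype came from 2 embryos and so share embryos, which makes the p-values of the genotype contrast too small. What this sharing does to the tissue contrasts was not tested. The settings tried were normexp background correction (offset 50), a percentile over probes above background on all arrays, quantile normalisation, the deposited table, the mean over a gene's probes, all probes and a 4-fold threshold. The first 5 of these and the main one are the 6 settings over which ranges are given. The mean over a gene's probes takes in probes that were not well above background.

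The members, gene lists and tests were chosen with earlier results of these data known. All members are named. Pathway genes are named when at least 2-fold different, up to 3 per list and direction, or all where a list had at most 5 such genes. An item that met these criteria is not reported here. Markers are given as examples.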

Additional observations from a re-analysis of the deposited data

Results flagged for a closer look

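The mutant minus control difference of Igf1 went in opposite directions between tissues at its brightest probe. It was 2.30 in interzone and 1.21 in growth plate, higher in the mutant, and -1.64 in interdigital tissue, lower in the mutant. Each value compares 1 array with 1 array, and the difference between tissues was not tested.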

How the results depend on the processing

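With 1 array per group, the limit of every comparison within a tissue is the missing replicate, and the growth plate control array, with the lowest signal, limits all values that use it. The labels carry no replicate numbers to pair by, and the limma fit of genotype matches the arrays by tissue instead. The 4 limma counts of members called were 0 in every alternative run, also when each tissue's arrays were left out in turn and with slide as a block. Over all genes the genotype contrast called 11 with normexp and 14 with the deposited table, beside 0.

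Another scaling moved the share of higher among the genes counted at 2-fold. In growth plate it was 40.4%, and 16.8% with the deposited table, 54.4% with the percentile over probes above background on all arrays and 50.7% with the mean over probes. In interzone it was 43.9%, and 72.2% with normexp and 54.3% with the deposited table. In interdigital tissue it was 38.7%, and 51.3% with the deposited table and 49.2% with quantile normalisation. The median of all genes in growth plate moved from -0.45 to -1.56 with the deposited table, and in interzone from -0.11 to 0.32 with normexp.

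Counts of members at 2-fold moved by more than 1.5 times as follows. At 4-fold the mutant comparisons had 2 members in interzone (beside 4), 1 in growth plate (beside 5) and 0 in interdigital tissue (beside 1). At 4-fold the tissue comparisons had 2 in control growth plate against interdigital tissue (beside 4), 1 in control interzone against interdigital tissue (beside 2), 0 in mutant growth plate against interzone (beside 6), 0 in mutant growth plate against interdigital tissue (beside 4) and 1 in mutant interzone against interdigital tissue (beside 2). The growth plate count of mutant against control was 3 with the percentile over probes above background on all arrays and 3 with quantile normalisation, and the interdigital count was 2 with normexp and 2 with quantile normalisation. Control growth plate against interzone had 7 with the deposited table and 7 with the mean over probes (beside 4), control interzone against interdigital tissue had 4 with the mean over probes, and mutant interzone against interdigital tissue had 1 with normexp. The cause was not tested. The other 47 of 63 alternative totals at 2-fold stayed within 1.5 times, though the split of higher against lower could turn, as given above for growth plate. Those of the run with all probes are among the 47 and could not move. Every member was already well above background at its brightest probe on each array.

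Of 180 mutant minus control differences of members recomputed, 151 kept their direction and side of 2-fold. Of these 151, 30 came from the run with all probes, which uses the same member values and so could not change them. The mean over probes likewise could not change a gene with 1 probe. Of the rest, 9 were no longer past 2-fold, 7 came to be past it, and 12 that were not past it changed sign. The 1 past it that reversed was Igf1r in growth plate, at 0.14 with the mean over probes. Of 300 tissue differences of members, 242 kept direction and side of 2-fold, 9 were no longer past it, 19 came to be past it, and 30 that were not past it changed sign. With the deposited table, control growth plate against interdigital tissue moved from -1.67 to -0.22 for Igfbp2, from -1.87 to -0.42 for Igfbp4 and from -0.98 to 0.48 for Igfbp6.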
